A study of Drosophila melanogaster with 12 samples.

Results

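Chemoreceptor genes encode the membrane proteins with which flies smell and taste. The set described here holds the protein-coding genes of the dm6 annotation whose symbol is Or, Gr or Ir followed by a digit. These are 179 of 13968 protein-coding genes, namely 59 olfactory receptor (Or), 60 gustatory receptor (Gr) and 60 ionotropic receptor (Ir) genes, and 7 pseudogenes with such symbols were left out. They were scored in 12 ATAC-seq libraries of Drosophila melanogaster embryos, each a list of peaks of accessible chromatin called in 1 library. There were 6 groups of 2 libraries: HIRA M-Z+ mutant embryos at 0.5 to 1.5 h and their wild-type controls, HIRA M-Z+ mutant embryos at 2 to 3 h and their wild-type controls, and dPCIF1 M-Z+ mutant embryos at 0.5 to 1.5 h and their wild-type controls. M-Z+ means that the mother lacked the gene product and the embryo carried a working zygotic copy. HIRA is a histone chaperone that deposits H3.3 outside replication. dPCIF1 corresponds to PCIF1, an mRNA cap methyltransferase of mammals. The mutants carried CRISPR-made null alleles (which of 2 alleles was not stated for these libraries), the wild-type strain was w1118, each library was a pool of hand-selected embryos, and the study describes many HIRA mutant embryos at 2 to 3 h as delayed or arrested in nuclear division, so that genotype and developmental progress cannot be told apart there.

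Odorant receptors form ion channels with the shared subunit Orco, gustatory receptors are related channels that detect tastants and carbon dioxide, and ionotropic receptors descend from glutamate receptors and work with the co-receptors Ir8a, Ir25a, Ir76b and Ir93a. A sensory neuron usually expresses 1 or a few of these genes, and it does so long after the blastoderm, in neurons that embryos of these ages do not yet have. The genes are therefore commonly treated as silent in early embryos. The comparisons address whether their starts were accessible all the same, and whether that differed with stage, with maternal HIRA or with maternal dPCIF1.

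A start was scored as open in a library when a peak overlapped the 500 bp on either side of any annotated transcription start site (TSS), and a gene body when a peak overlapped the gene. The peak lists hold positions only, so the sequencing depth is unknown and a missing peak means that no peak passed the caller's threshold, not that the site was closed. The lists held 1505 to 11432 peaks, and the HIRA mutants at 0.5 to 1.5 h had the shortest, with 1505 and 2399 peaks against 4707 and 5449 in their controls. The 2 wild-type groups of the same 0.5 to 1.5 h stage also stood apart, with 7534 and 7814 peaks in the dPCIF1 controls and 4707 and 5449 in the HIRA controls. All 14 early zygotic genes that were listed as markers of the blastoderm embryo, among them sisA, zen, eve, ftz and Kr, had a TSS peak in both libraries of each of the 3 wild-type groups, and 8 of 14 did in the HIRA mutants at 0.5 to 1.5 h. With 2 libraries against 2, the smallest p of an exact two-sided permutation test is 0.33, so no difference between groups could pass 0.05.

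Chemoreceptor starts were open less often than the starts of all protein-coding genes in each of the 12 libraries. HIRA mutants at 0.5 to 1.5 h had 3 and 4 of 179 members with a TSS peak, and their controls had 4 and 3. At 2 to 3 h the HIRA mutants had 17 and 13, against 28 and 24 in their controls. The dPCIF1 mutants had 24 and 31, against 19 and 23 in their controls. The counts of the HIRA groups overlapped at 0.5 to 1.5 h and did not overlap at 2 to 3 h, and those of the dPCIF1 groups did not overlap. Shares of all protein-coding genes overlapped in none of these comparisons. They were 3.49% and 5.80% in HIRA mutants at 0.5 to 1.5 h, against 15.49% and 18.13%. At 2 to 3 h they were 24.48% and 17.53%, against 33.05% and 31.23%. In dPCIF1 mutants they were 32.02% and 35.06%, against 21.84% and 22.95%. As shares, the members ran from 1.68% (95% Wilson interval 0.57 to 4.81) to 17.3% (12.5 to 23.5), where the intervals cover counting error only. The same shares over all protein-coding genes ran from 3.49% to 35.1%. Set against all genes in the same library, the members' share was 0.48 and 0.39 of the background in HIRA mutants at 0.5 to 1.5 h, against 0.14 and 0.09 in their controls. In the other 8 libraries this ratio stayed between 0.39 and 0.56.

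**Figure D1:**
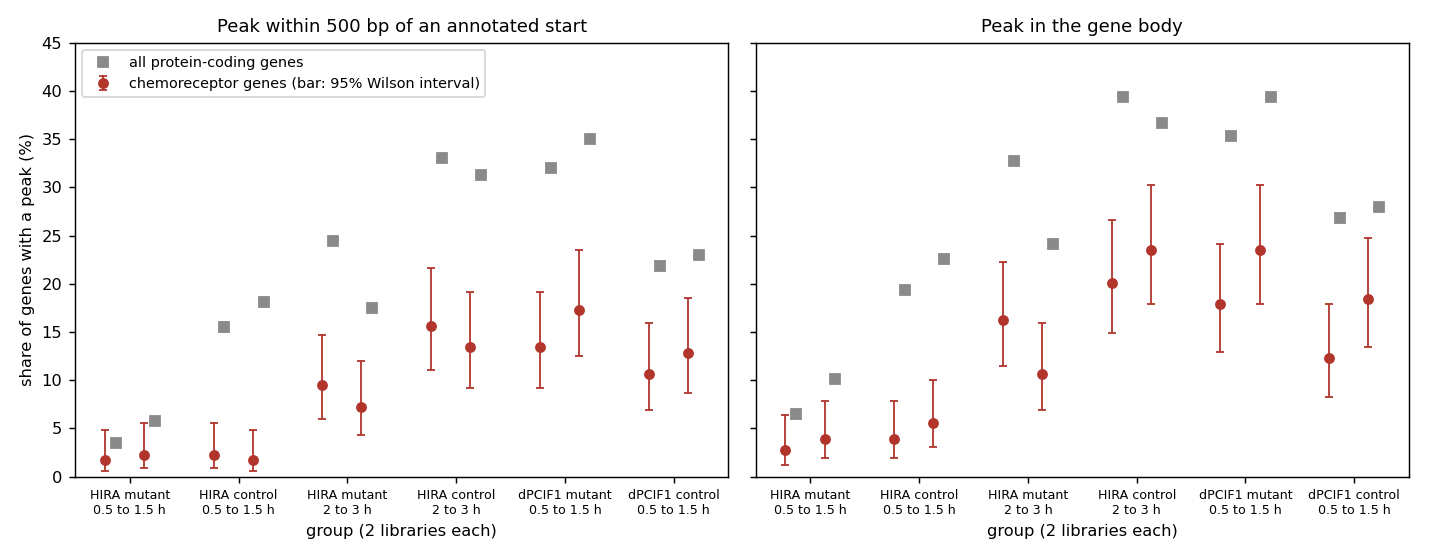
Share of genes (%, vertical axis) with a peak near an annotated start (left) or in the gene body (right) in each of the 12 libraries, for the 179 chemoreceptor genes (red, bars: 95% Wilson interval) and all protein-coding genes (grey squares). The red points lie below the grey squares of the same library throughout, and at starts they run from 1.68% to 17.3% against 3.49% to 35.1%.

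Few of these peaks recurred. Counting a start only when both libraries of a group had a peak, the HIRA mutants at 0.5 to 1.5 h had 0 of 179 members (3 counts, the limit that a count of 0 allows, would be 1.68%, and the upper Wilson bound is 2.10%) against a background of 2.32% of all protein-coding genes, and their controls had 1 member, the taste receptor gene Gr39a, against 11.8%. At 2 to 3 h the HIRA mutants had 9 members (5.03%) against a background of 15.1%, and their controls had 14 (7.82%) against 26.4%. The dPCIF1 mutants had 15 (8.38%) against a background of 28%, and their controls had 9 (5.03%) against 17.6%. Of the members with a peak in either library of a group, 0% to 42.9% had it in both, where all genes gave 33.3% to 71.5%. Over the 12 libraries 68 members (38.0%) had a TSS peak at least once, against 50.7% of all genes, and 28 (15.6%) had it in both libraries of a group, against 34.6%. No member had a TSS peak in all 12 libraries, against 2.10% of all genes, and 7 (3.91%) had it in 6 or more, against 21.4%. Gr genes led with 16 of 60 replicated at least once, ahead of 7 of 59 Or and 5 of 60 Ir genes.

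**Figure D2:**
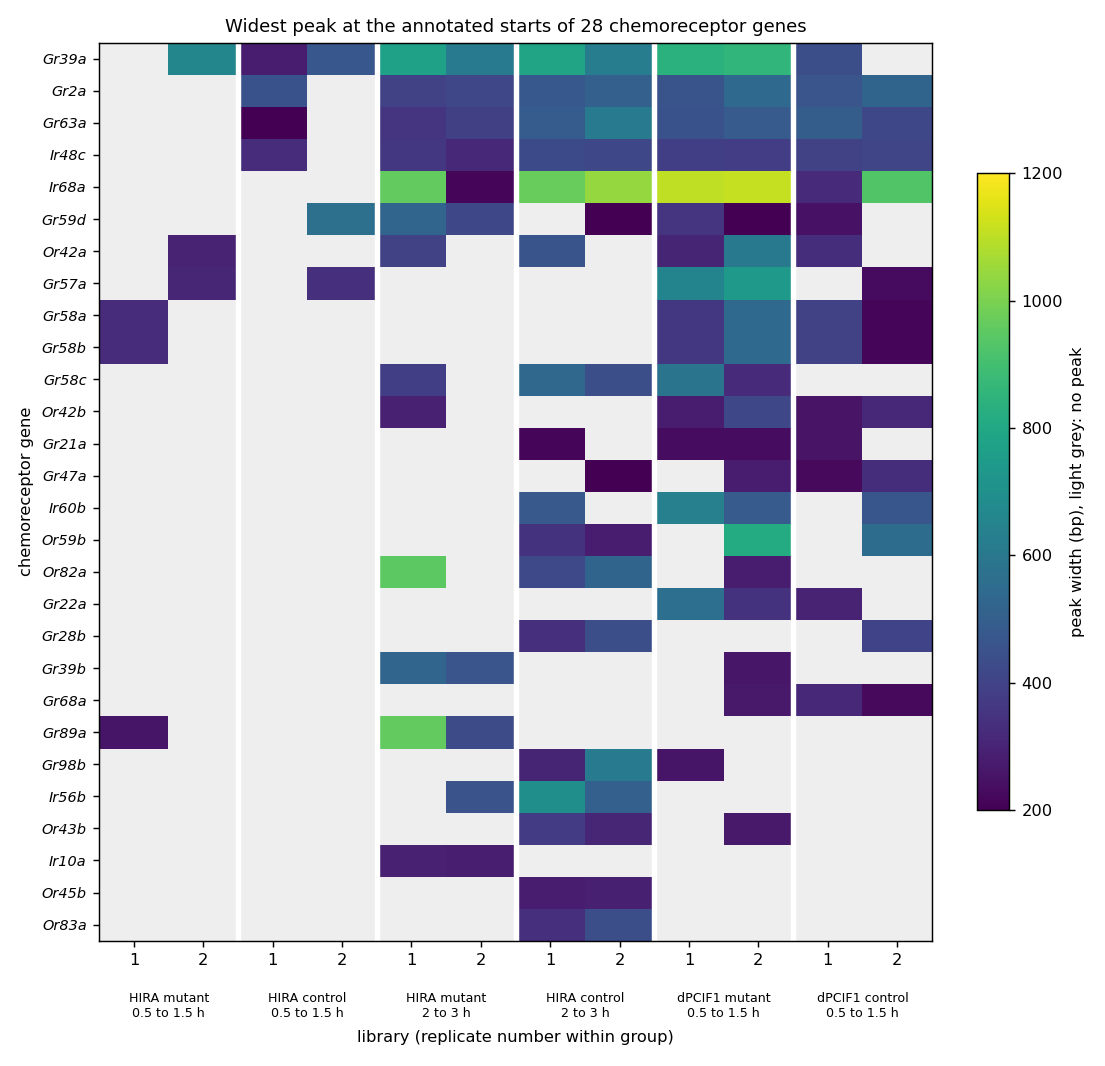
Width in bp (colour) of the widest peak at the annotated starts of the 28 chemoreceptor genes that had one in both libraries of at least 1 group (rows) in the 12 libraries (columns, mutants left of their controls). Gr39a has a peak in 10 libraries and Gr2a, Gr63a and Ir48c in 9, most of the others have one in 2 to 5, and the 4 columns on the left are nearly empty.

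The peaks of the family also lay elsewhere than those of other genes. Of 202 pairs of a member and a TSS peak over the 12 libraries, 139 (68.8%) had the peak midpoint inside a coding exon of the member itself, against 15.7% of 42549 pairs over all protein-coding genes. The median midpoint was 277.5 bp into the gene for the members and 17 bp before the start for all genes (median offset -17 bp). A member's peak covered an annotated start in 15.3% of pairs, against 58.5% over all genes. Counting each gene once, 50 of the 68 members with a peak had most of their peaks in coding sequence (73.5%), against 1530 of 7075 genes (21.6%). The share in coding exons was 50% or more in each of the 12 libraries, although 4 of these libraries gave only 3 or 4 pairs each. Pairs over libraries share their genes and are not replicates, so these shares are descriptions without a test.

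**Figure D3:**
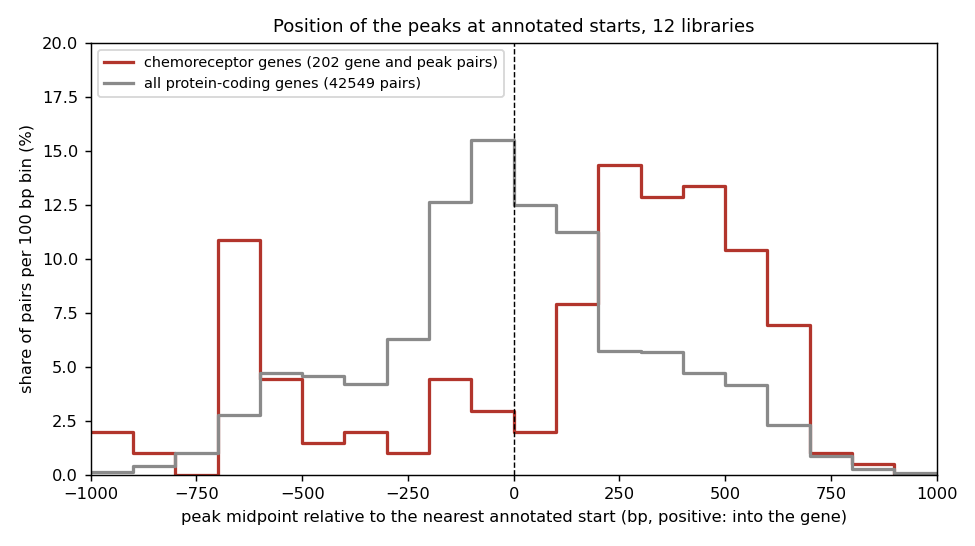
Distribution of peak midpoints around the nearest annotated start (horizontal axis in bp, positive into the gene; vertical axis the share of gene and peak pairs in each 100 bp bin) for chemoreceptor genes (red) and all protein-coding genes (grey). The grey line peaks at the start, whereas the red line is low there and is high from 200 to 600 bp inside the gene, with a second, narrow rise between 600 and 700 bp upstream that holds Gr2a and Ir48c.

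The annotation of the family also differs from that of other genes. Its part in the lower share of open starts and in the position of the peaks was not tested. An annotated start coincides with the first coding base in 133 of 179 members (74.3%), that is, no transcribed stretch before the coding sequence is annotated, whereas this holds for 3.82% of all protein-coding genes. The members are also compact and mostly isolated. Their median length was 1691 bp against 2164 bp, coding sequence made up a median of 85.6% of the gene against 57.3%, and the nearest start of another gene lay a median of 1996 bp away against 1087 bp. There are 401 other genes whose annotated start is the first coding base, and the share open in both libraries is set beside that of the 133 members of this kind, without a test. It was 0% for the members and 0.25% for the other genes in HIRA mutants at 0.5 to 1.5 h, against 0.75% and 1.75% in their controls. It was 5.26% for the 133 such members and 5.49% for the 401 other genes in HIRA mutants at 2 to 3 h, against 7.52% and 7.23% in the controls of that stage. It was 6.77% and 7.48% in dPCIF1 mutants, against 3.76% and 4.74% in their controls. A start was open in at least 1 of the 12 libraries for 36.8% of these members and 23.4% of these other genes. In the 46 members with a start annotated upstream of the coding sequence it was 8.70% in the HIRA controls at 2 to 3 h and 13.0% in the dPCIF1 mutants, against 27.2% and 28.8% of the 13388 other genes of this kind. The position of the peaks was less alike, since 73.3% of pairs lay in own coding exons for such members and 39.9% for the 401 other genes. Whether the annotated starts of these genes are where transcription begins was not tested.

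**Figure D4:**
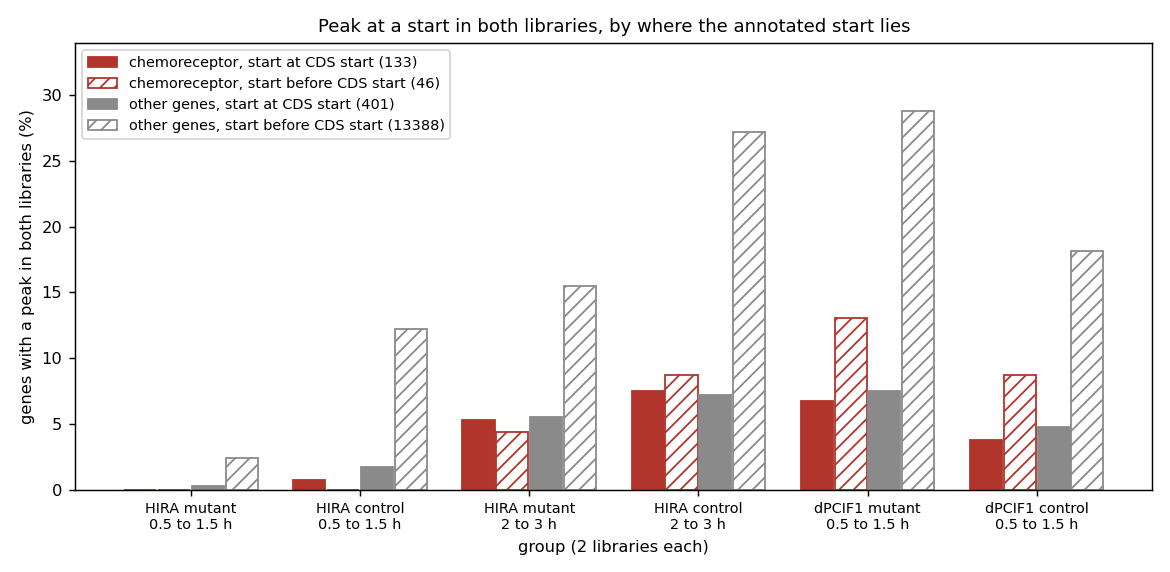
Share of genes (%) with a peak at a start in both libraries of each group, for chemoreceptor genes (red) and other protein-coding genes (grey), split by whether an annotated start lies at the first coding base (solid) or all lie before it (hatched). The solid red and solid grey bars differ by less than 1 percentage point at 2 to 3 h and in the dPCIF1 groups, and the hatched grey bars, up to 28.8%, stand above all others.

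The DNA under the recurrent peaks shows the 3 places in which they fell. For 6 members, the stretch covered in the most libraries is given below, read from the Release 6 sequence on the strand of the gene, 5′ to 3′, cut to the central 300 bases where it was longer, with matches to 4 searched motifs in capitals. The motifs were GAGAG for GAF, CAGGTA for Zelda, TATCGAT for DREF and GGTCACACT for M1BP, on either strand, and the capitals below all turned out to be GAGAG or its reverse complement. Positions are dm6, and distances run from the nearest annotated start of the member, positive into the gene. Gr2a was covered upstream in 9 libraries (chrX:1451621-1451920, plus strand, -809 to -510 bp). Gr63a was covered across its start in 8 libraries (chr3L:3896516-3896666, minus strand, -63 to 87 bp). Gr39a was covered inside a coding exon in 10 libraries (chr2L:21296595-21296813, plus strand, 281 to 499 bp), Gr68a in 3 (chr3L:11751449-11751573, plus strand, 144 to 268 bp) and Or83a in 2 (chr3R:5398687-5398986, minus strand, 210 to 509 bp). Or82a was covered in 4 libraries over coding sequence and an intron (chr3R:4257256-4257443, plus strand, 284 to 471 bp, 70.2% coding).
Gr2a: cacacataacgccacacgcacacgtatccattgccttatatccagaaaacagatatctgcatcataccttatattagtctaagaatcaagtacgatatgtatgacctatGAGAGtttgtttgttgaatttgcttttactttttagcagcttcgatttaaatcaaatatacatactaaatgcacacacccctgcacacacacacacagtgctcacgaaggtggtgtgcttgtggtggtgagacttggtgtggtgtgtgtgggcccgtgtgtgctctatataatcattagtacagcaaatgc
Gr63a: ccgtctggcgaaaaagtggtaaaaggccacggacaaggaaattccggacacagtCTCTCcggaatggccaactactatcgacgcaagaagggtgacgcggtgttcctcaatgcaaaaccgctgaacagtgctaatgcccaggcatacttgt
Gr39a: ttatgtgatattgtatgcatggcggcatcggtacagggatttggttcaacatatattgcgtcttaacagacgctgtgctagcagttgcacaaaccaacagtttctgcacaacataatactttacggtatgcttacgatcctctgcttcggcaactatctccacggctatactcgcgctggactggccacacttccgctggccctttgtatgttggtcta
Or82a: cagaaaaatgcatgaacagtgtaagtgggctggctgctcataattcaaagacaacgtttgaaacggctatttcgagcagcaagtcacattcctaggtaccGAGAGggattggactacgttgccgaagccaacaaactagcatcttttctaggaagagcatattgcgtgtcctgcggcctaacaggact
Gr68a: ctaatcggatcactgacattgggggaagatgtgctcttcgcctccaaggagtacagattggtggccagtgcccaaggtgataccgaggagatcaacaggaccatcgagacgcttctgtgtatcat
Or83a: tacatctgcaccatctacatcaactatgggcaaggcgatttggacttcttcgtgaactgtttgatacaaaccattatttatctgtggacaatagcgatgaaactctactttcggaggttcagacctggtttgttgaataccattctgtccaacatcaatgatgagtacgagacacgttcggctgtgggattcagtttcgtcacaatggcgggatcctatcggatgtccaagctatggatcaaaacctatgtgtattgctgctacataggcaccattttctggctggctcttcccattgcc

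The printed stretches differ in base composition. The Gr2a stretch is 41% GC with runs of CA and TG, and the coding ones range from 44.7% GC in Or83a to 52% in Gr68a. Over all member peaks with the midpoint in own coding exons, the median GC was 49%, against 41.0% in the 1000 bp on either side, and 136 of 139 pairs (97.8%) were richer in GC than their flanks. The same was true of 92.2% of the pairs in own coding exons over all protein-coding genes. Of the member peaks elsewhere, 36 of 63 (57.1%) were richer in GC than their flanks, against 74.1% of such pairs over all genes. Of the member peaks in coding exons 36.7% held GAGAG and 23.7% held CAGGTA, against 42.8% and 29.2% of coding peaks over all genes. Member peaks elsewhere held GAGAG in 66.7% of pairs, against 58.3%.

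Around the annotated starts the family had few of the core promoter motifs of broadly expressed genes. In the 300 bases from 250 before to 50 after the outermost start, TATCGAT, the DNA replication element bound by DREF, occurred in 9 of 179 members (5.03%) against 18.2% of all protein-coding genes. GGTCACACT, bound by M1BP, occurred in 0 members against 6.04%. GAGAG occurred in 20.1% of members against 29.7%, and CAGGTA in 6.70% against 6.24%. The 401 other genes annotated from their first coding base gave 5.74% for TATCGAT, 0.25% for GGTCACACT and 20.9% for GAGAG, close to the members. A letter match is not a binding site, and the motifs played no part in choosing the genes.

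Gr39a was the member found open in the most libraries. It makes several taste receptor isoforms from 4 annotated starts and lies inside the gene Mondo, 6461 bp from the nearest start of another gene. Its widest TSS peak measured 0 and 660 bp in HIRA mutants at 0.5 to 1.5 h and 282 and 471 bp in their controls, where 0 stands for no peak. It measured 774 and 613 bp in HIRA mutants at 2 to 3 h and 784 and 625 bp in their controls, and 837 and 860 bp in dPCIF1 mutants against 441 and 0 bp in theirs. The widths of the HIRA groups overlapped at both stages, and the dPCIF1 mutants were wider than both of their controls. All 11 of its peaks had the midpoint in Gr39a coding sequence, and none reached the start window of another gene.

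Gr2a, a gustatory receptor gene on the X chromosome, had its peak at the same upstream place each time. The widths were 0 and 0 bp in HIRA mutants at 0.5 to 1.5 h against 452 and 0 bp in their controls, 394 and 413 bp in HIRA mutants at 2 to 3 h against 477 and 505 bp, and 458 and 540 bp in dPCIF1 mutants against 462 and 524 bp. The midpoints all lay upstream, at offsets of -672 to -635 bp. No other gene starts within 4624 bp, and the peak reached neither the Gr2a start nor its body. Where present, it covered 35 to 134 bp of the start window. The widths did not overlap between HIRA mutants and controls at 2 to 3 h, the mutants being narrower, and they overlapped in the dPCIF1 comparison. For the covered bases of the outermost start window, each of the 28 members gave an exact permutation p of 0.33 or more in each of the 5 contrasts.

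The carbon dioxide receptor is a pair of gustatory receptors, Gr21a and Gr63a, and their starts behaved differently. Gr63a was open in 9 libraries, with widths of 0 and 0 bp in HIRA mutants at 0.5 to 1.5 h against 203 and 0 bp in their controls, of 353 and 389 bp in HIRA mutants at 2 to 3 h against 492 and 610 bp in their controls, and of 451 and 487 bp in dPCIF1 mutants against 495 and 418 bp. Its start lies 297 bp from that of Lamtor4, and in 8 of the 9 libraries each of its peaks also reached the Lamtor4 window, so the signal cannot be assigned to either gene. Gr21a had peaks of 233 and 234 bp in dPCIF1 mutants against 254 and 0 bp in their controls, and of 216 and 0 bp in the HIRA controls at 2 to 3 h against none in the mutants. These are close to the narrowest peak in the files (200 bp), all 4 lay in Gr21a coding sequence, and no start of another gene lies within 1309 bp.

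Other recurrent members also shared their peaks. Ir48c lies inside ths, which encodes a fibroblast growth factor, and in all 9 libraries where it was open its peak also reached a ths start window, with the midpoint upstream of Ir48c at offsets of -684 to -642 bp. These peaks covered only 15 to 51 bp at the edge of the Ir48c start window. Gr58a and Gr58b are divergent neighbours whose starts lie 183 bp apart, and a single peak served both in 5 libraries, among them both dPCIF1 mutants (363 and 541 bp) and both of their controls (393 and 213 bp). Ir60b, expressed in a pharyngeal taste neuron that limits sugar intake, was open in 4 libraries and each time with the start of Letm1, which encodes a mitochondrial protein. Gr5a, the trehalose receptor gene, had peaks in 3 libraries, each of which reached the Tre1 window and covered only 1 to 7 bp of the Gr5a window. Ir68a, needed in moist-sensing neurons, had the widest peak of the 28 members open in both libraries of a group, with 1105 and 1112 bp in dPCIF1 mutants against 321 and 930 bp in their controls, and 958 and 218 bp in HIRA mutants at 2 to 3 h against 968 and 1043 bp. It was open in 8 libraries, and 6 of its 12 peaks also reached the windows of 2 long noncoding RNA genes, lncRNA:CR44718 and lncRNA:CR44719.

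Peaks that reached the window of another gene made up 52 of the 202 pairs, and their median midpoint was 493 bp upstream of the member (offset -493 bp). In the 150 pairs that reached no other window, 88.0% of midpoints lay in own coding exons, and the median offset was 359 bp. Of the members open in both libraries, each peak was shared in this sense for 1 of 9 in HIRA mutants at 2 to 3 h against 2 of 14 in their controls, and for 6 of 15 in dPCIF1 mutants against 4 of 9 in theirs. Over all genes these shares were 30% against 42.9% for the HIRA groups and 45.5% against 39.5% for the dPCIF1 groups. Close neighbours are rarer in the family, with another start within 500 bp for 25 members (14.0%) against 34.4% of all genes. Where a neighbour was that close, the start was open in both libraries for 4 of 25 members (16%) in dPCIF1 mutants, against 40.3% of all genes with such a neighbour.

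Moving each window 5 kb up and down the chromosome gave the level of peaks at that distance from the starts, where other genes or the same gene can lie. The members' outermost starts were open 0.21 to 1.84 times as often as the moved windows, with a ratio under 1 in 3 libraries, all of them at 0.5 to 1.5 h with 3 or fewer open members. For all protein-coding genes the ratio was 1.66 to 2.59. The ratio of the members lay below that of all genes in each of the 12 libraries.

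With 500 bp windows, loss of maternal HIRA at 2 to 3 h was the mutant contrast with the most member calls. A start was called lost when both control libraries had a peak and neither mutant library did, and gained in the reverse case. At 2 to 3 h 6 members (3.35%) were lost against a background of 6.78% of all protein-coding genes, and 3 (1.68%) were gained against 0.659%. When the 1505 widest peaks of each library were used, this contrast had 0 gained and 0 lost members, against 2 gained in dPCIF1 mutants. With 1000 bp windows 11 members were lost, and with 250 bp windows 3. As a share of those open in the controls, 6 of 14 members (42.9%) and 25.7% of all genes were lost. The lost members were Gr28b, whose products sense light, heat and bitter compounds, Gr98b, which takes part in sensing a toxic plant amino acid, and the odorant receptor genes Or43b, Or45b, Or59b and Or83a. Or83a had no start peak in the mutants, against 334 and 439 bp in the controls, and none in any of the other 8 libraries. Its gene body had a peak in 3 of the 12 libraries, among them both of these controls. Or45b likewise had none in the mutants, against 281 and 287 bp in the controls. Or59b had none in the mutants, against 348 and 277 bp in the controls. The gained members were Gr39b (526 and 464 bp in the mutants, none in the controls), the core bitter receptor gene Gr89a (961 and 430 bp) and Ir10a (290 and 284 bp). The Gr98b peaks lay upstream of the gene (median offset -425 bp), 1 of the 2 Ir10a peaks had its midpoint just upstream, and the other 7 members had theirs in own coding exons. None of the 9 shared its peak with another start. The calls rest on agreement of both libraries, since leaving out control replicate 1 or 2 gave 14 or 17 lost members and leaving out mutant replicate 1 or 2 gave 5 or 6 gained. All genes were not called under the alternatives in this paragraph, so those counts have no background.

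At 0.5 to 1.5 h no member was gained or lost in HIRA mutants, against backgrounds of 0.0644% gained and 6.6% lost. With the dPCIF1 controls, whose peak lists were longer, in place of their own 7 members were lost, and with 1000 bp windows 3. The share of all genes lost was not counted in either case, so these 2 counts have no background. Only Gr39a was open in both of their own controls, and it had a 660 bp peak in 1 of the mutants. The share of all protein-coding genes with a TSS peak was 4.64% ± 1.63 in the mutants and 16.8% ± 1.87 in the controls at this stage, and 21.0% ± 4.91 and 32.1% ± 1.29 at 2 to 3 h (SD, n = 2 each). Both differences, of -12.2 and -11.1 percentage points, gave p = 0.33 in the exact two-sided permutation test and 0.33 after Benjamini-Hochberg adjustment over the 5 contrasts.

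In dPCIF1 mutants 1 member (0.559%), Gr58c, was gained against a background of 6.22%, and 0 were lost against a background of 0.544%. As a share of those open in the controls, 0 of 9 members and 3.09% of all genes were lost. With the early HIRA controls, whose peak lists were shorter, in place of their own, 9 members were gained, and with 1000 bp windows 5. With 250 bp windows, 6 members were open in both libraries in mutants and 6 in controls. Gr58c had peaks of 583 and 323 bp in the mutants and none in the controls. Of the 9 control members 7 were open in both mutant libraries too, and the mean number of open members was 27.5 in mutants against 21 in controls, 1.31 times as many, where all genes gave 1.50 times as many. The share of all protein-coding genes was 33.5% ± 2.15 in mutants and 22.4% ± 0.79 in controls (SD, n = 2 each), a difference of 11.1 percentage points (exact permutation p = 0.33). Leaving out mutant replicate 1 or 2 gave 12 or 6 gained members, and leaving out control replicate 1 or 2 gave 6 or 3. Calls under these alternatives were made for members only, without a share of all genes. The members that were open in both mutant libraries but in at most 1 control library included Or42a, a larval receptor for fruit esters, with 305 and 605 bp against 329 and 0 bp, Gr57a with 650 and 738 bp against 0 and 229 bp, Gr22a with 565 and 345 bp against 295 and 0 bp, and the bitter receptor gene Gr59d with 349 and 200 bp against 247 and 0 bp. Each of these had a peak in 1 of the controls, so the groups overlapped in presence.

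With age, members were gained and none was lost. In wild type of the HIRA set, 10 members (5.59%) were open in both libraries at 2 to 3 h and in neither at 0.5 to 1.5 h, against a background of 7.79% gained and 0.0215% lost. They were Gr28b, Gr58c, Gr98b, Ir56b, Ir68a, Or43b, Or45b, Or59b, Or82a and Or83a. In HIRA mutants 7 (3.91%) were gained against 9.14%, namely Gr2a, Gr39b, Gr59d, Gr63a, Ir10a, Ir48c and Ir68a, and 0 were lost against 0%. The mean count at 2 to 3 h was 26 in wild type against 3.5 at 0.5 to 1.5 h, 7.43 times as many, where all genes gave 1.91 times as many. In HIRA mutants it was 15 against 3.5, 4.29 times as many, where all genes gave 4.52 times as many. The exact permutation p for all genes was 0.33 in both. Leaving out late replicate 1 or 2 gave 19 or 24 gained members in wild type and 11 or 14 in mutants, where the share of all genes was not counted.

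The wild-type difference with age depended on which early controls it was set against. The dPCIF1 controls, wild type and of the same 0.5 to 1.5 h stage, had 19 and 23 open members, against 4 and 3 in the HIRA controls. That is 6.0 times as many on average, where all genes gave 1.33 times as many. In all, 6 members (3.35%) were open in both dPCIF1 controls and neither HIRA control, namely Gr47a, Gr58a, Gr58b, Gr68a, Ir68a and Or42b, against a background of 3.8% gained and 0.702% lost. Gr47a, a bitter receptor gene, had 225 and 331 bp there, Gr68a, a male taste receptor gene for female pheromone, had 310 and 224 bp, and Or42b, which responds to fruit odours at low concentration, had 253 and 310 bp. The 2 control sets differ in experiment, and what else differed between them was not given in the sources used here. Between the early dPCIF1 controls and the late HIRA controls, which share no library, 4 members were open in both (Gr2a, Gr63a, Ir48c and Ir68a), 44.4% of the 9 and 28.6% of the 14. For all genes the shared set made up 90.3% of the first and 60.2% of the second.

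Gene bodies held peaks somewhat more often than starts. In both libraries of a group, 1 member (0.56%) had a body peak in HIRA mutants at 0.5 to 1.5 h against a background of 4.55% of all genes, and 2 (1.12%) in their controls against 14.8%. At 2 to 3 h there were 14 (7.82%) in HIRA mutants against 20.8%, and 25 (13.97%) in their controls against 31.1%. The dPCIF1 mutants had 24 (13.41%) against 30.3%, and their controls had 15 (8.38%) against 21.5%. Members differ from other genes in length, and 127 of the 179 measure 1 to 2 kb. In that class 6 members (4.72%) had a replicated body peak in HIRA mutants at 2 to 3 h against 9.18% of all genes of that length, and 13 (10.2%) in their controls against 17.4%. There were 16 (12.6%) in dPCIF1 mutants against 16.6%, and 6 (4.72%) in their controls against 8.94%. The part of length in the lower share of the members was not tested. All 3 members of 5 to 20 kb had a replicated body peak in the HIRA controls at 2 to 3 h and dPCIF1 mutants. Over all genes of that length 58.2% and 56.4% did. In HIRA mutants at 2 to 3 h and the dPCIF1 controls 2 of these 3 members did, against 43.2% and 42.5%.

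Some members had body peaks away from their starts. Or85f had a body peak in all 12 libraries and a TSS peak in 2. It was the only member (0.56%) with a body peak in every library, against 3.90% of all genes. Ir93a, a co-receptor for sensing humidity and cooling, had a body peak in 9 libraries and a TSS peak in 1, and Ir21a, which acts with it in cool sensing, had body peaks in 9 and none at its start. Or49b had body peaks in 9 libraries and none at its start, Gr85a and Or45a had them in 7, and Or63a in 6. Ir40a, a dry-sensing receptor gene, and Ir41a, the longest member at 104437 bp, had them in 5. Gr10a and Or10a, which share a single annotated extent and start, had them in the same 4. In all, 85 members (47.5%) had neither a TSS nor a body peak in any library, against 35.9% of all protein-coding genes.

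The best-known genes were also taken by role. Of all protein-coding genes, 15.1% were open in both libraries in HIRA mutants at 2 to 3 h against 26.4% in their controls. In dPCIF1 mutants 28% were, against 17.6% in theirs. Beside these shares, co-receptor, antennal Ir and sugar receptor genes were mostly without replicated start peaks, unlike the short lists of bitter and carbon dioxide receptors. The 4 co-receptor genes Ir8a, Ir25a, Ir76b and Ir93a had no TSS peak in both libraries of any group, and 1 of the 4, Ir93a, had 1 in a single dPCIF1 mutant. Ir68a was the only one of 17 antennal Ir genes with a replicated start. None of 9 sugar receptor genes was replicated, and besides Gr5a only Gr43a, the fructose receptor gene, had a peak (1 library). Of 5 core bitter receptor genes, Gr39a and Gr89a (40%) were replicated in HIRA mutants at 2 to 3 h. Gr39a alone was in both HIRA control groups and in dPCIF1 mutants. Both carbon dioxide receptor genes were replicated in dPCIF1 mutants, and Gr63a alone in their controls and in both HIRA groups at 2 to 3 h. Gr66a, the widely used marker of bitter neurons, and Or67d, the receptor for a male pheromone, had neither a TSS nor a body peak in any library. Of 25 receptor genes of larval olfactory neurons 0 were replicated in HIRA mutants at 2 to 3 h, against 3 in their controls (Or45b, Or82a and Or83a), and 2 in dPCIF1 mutants against 1 in theirs. Orco had no TSS peak in any of the 12 libraries. By contrast pdm3, a regulator of odorant receptor choice that embryos also use elsewhere, had one in 12, and ato and amos, the proneural genes of sense organs, in 11. These came from a list of 10 olfactory genes other than receptors. Of its other genes, lz had a TSS peak in 8 libraries, Snmp1 in 2 and Amt in 1. Like Orco, the listed genes acj6, lush and Snmp2 had none. Odorant-binding protein genes, a family likewise used in sense organs, had replicated TSS peaks for 3 of 51 in HIRA mutants at 2 to 3 h against 7 in their controls, and for 6 in dPCIF1 mutants against 1 in theirs. Families with other roles were also low, with 1 of 70 cuticular protein genes in HIRA mutants at 2 to 3 h against 3 in their controls, and 2 in dPCIF1 mutants against 3 in theirs. Of 29 pickpocket ion channel genes, 1 was open in both libraries in those HIRA mutants against 1 in their controls, and 2 in dPCIF1 mutants against 0 in theirs.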

How the data were processed

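ATAC-seq libraries were made from pools of embryos, 2 biological replicates per group. The authors trimmed reads with Trimmomatic 0.39, mapped them to dm6 with Bowtie2 2.2.5, filtered alignments by quality and uniqueness with SAMtools 1.18 and called peaks per library with MACS2 2.2.7.1. Handling of the transposase offset was not given in the sources used here. Each deposited file holds the chromosome, start and end of peaks and no other score, so that depth is unknown. Starts were converted to count from 1. Genes came from Ensembl release 115 on the same assembly, and bases from the Release 6 RefSeq sequence. Every protein-coding gene was scored, with 1 bp of overlap sufficing. The scoring was tested on simulated peaks. Shares of all genes were compared by exact two-sided permutation over libraries, with Benjamini-Hochberg adjustment. Named were all members with a TSS peak in both libraries of a group, 10 of those with body peaks but no such TSS peak, and textbook receptors. Python 3.11.15, numpy 2.4.6, pandas 2.3.3 and scipy 1.17.1 were used. The members and lists were chosen with earlier results of these data known, and the comparison of the 2 wild-type sets, the moved windows and the split by annotated start were added after seeing the data. Alternatives were other windows, overlaps, peak numbers, starts and controls, and leaving out each library.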

Additional observations from a re-analysis of the deposited data

How the results depend on the processing

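Directions of the 5 differences over all genes held under each alternative tried, but their size did not. With the 1505 widest peaks of each library they were -2.69 and -2.72 percentage points in early and late HIRA mutants. They were then 1.85 in dPCIF1 mutants, and with age 1.53 against a main value of 15.34 in wild type and 1.50 against 16.36 in HIRA mutants. Under the alternatives that keep both libraries, 110 of 154 values met the rule for unmoved and 44 did not, all of these counts of members. Counts were unmoved within 1.5 times the main value, and the differences over all genes when their sign held, whatever their size. The share in coding exons was unmoved within 14.7 percentage points, its SD between libraries. Groups are given in the order HIRA mutants and controls at 0.5 to 1.5 h, HIRA mutants and controls at 2 to 3 h, and dPCIF1 mutants and controls. With 1000 bp windows, the width the study used, 3, 7, 15, 26, 27 and 16 members were open in both libraries, and 3, 5, 6, 8, 12 and 8 of them shared each peak. With 250 bp windows 0, 0, 6, 8, 6 and 6 members were open in both libraries, so that the dPCIF1 mutants and their controls had the same count. Of these, 0, 0, 1, 1, 3 and 3 shared each peak. With the 1505 widest peaks of each library the counts were 0 in the early HIRA controls, 1 in each of the late HIRA groups, 3 in dPCIF1 mutants and 0 in their controls, and body counts were 1, 2, 2, 2 and 2 from the early HIRA controls on. With the outermost start alone the early HIRA controls had 0, since the Gr39a peak lies at an inner start. At 1000 bp 3 members were lost in early HIRA mutants, 11 in late ones, and 5 were gained in dPCIF1 mutants and 17 with age in wild type. At 250 bp 3 were lost in late HIRA mutants, 2 gained and 1 lost in dPCIF1 mutants, and 6 and 4 gained with age in wild type and HIRA mutants. With the widest peaks late HIRA mutants had 0 gained and 0 lost, dPCIF1 mutants 2 gained, and age gave 1 in wild type and 0 in HIRA mutants. Against the other early wild-type set 7 members were lost in HIRA mutants and 9 gained in dPCIF1 mutants. Gains and losses under the alternatives, and with a library left out, were counted for members only, without a share of all genes. The cause of these shifts was not tested.

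Leaving out either library gave open-start counts of 3 to 4, 3 to 4, 13 to 17, 24 to 28, 24 to 31 and 19 to 23, and body counts of 5 to 7, 7 to 10, 19 to 29, 36 to 42, 32 to 42 and 22 to 33. Gained members then ran from 0 to 3 and lost from 0 to 3 in early HIRA mutants, from 3 to 6 and 7 to 17 in late ones, and from 3 to 12 and 0 to 6 in dPCIF1 mutants. With age they ran from 10 to 24 and 0 to 1 in wild type, and from 8 to 14 and 0 to 2 in HIRA mutants. Replicate numbers gave no sign of pairing, since deviations of same-numbered libraries correlated between -0.02 and 0.01 over 13968 genes. With a replicate block the calls were the same by construction (6 lost and 3 gained in late HIRA mutants), because both pairs must show a change.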
